A study of Sus scrofa with 20 samples.

Results

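The chaperones and proteases that keep proteins folded inside mitochondria were followed in caecal mucosa of 20 pigs, with the mitochondrial chaperone TRAP1 as the lead gene. TRAP1 was chosen because its level differed between litters in these same arrays, and 7 further genes were added for their role, namely HSPD1, HSPE1, HSPA9, LONP1, CLPP, CLPX and YME1L1. Of these 8 genes, 4 had a probeset with values, among 10567 named genes measured in all. TRAP1 and LONP1 had 1 annotated probeset each, and of the 3 annotated probesets of HSPD1 and the 2 of HSPE1, 1 each held values. The probesets annotated to CLPX and YME1L1 held no values, no probeset was annotated to HSPA9 or CLPP, and these 4 genes were not analysed here.

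Of the pigs, a Large White and Landrace cross slaughtered after a feeding trial, 10 were of high feed efficiency (low residual feed intake, RFI) and 10 of low feed efficiency (high RFI). RFI is the feed a pig eats beyond what its weight, back fat and muscle depth predict. The pigs came from 5 litters, named by their sows 1406, 1410, 1411, 1417 and 1435. From each litter 1 female and 1 male of high and 1 female and 1 male of low feed efficiency were sampled, which gave 10 pairs of 1 sow and sex. Littermates had shared a pen, so that litter and pen cannot be told apart. The pigs are separate animals, with 1 array each. The mucosa was scraped off the terminal tip of the caecum, and such a sample holds several cell types. Fewer cells of a type and less RNA per cell cannot be told apart in it.

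TRAP1 is the HSP90-type chaperone of the mitochondrial matrix and is known for its effect on respiration and on the opening of the permeability transition pore. HSPD1 (HSP60) and HSPE1 (HSP10) are the barrel and the lid of the chaperonin in which imported matrix proteins fold. LONP1 is a matrix protease that degrades damaged and oxidised proteins. CLPP and YME1L1 are further proteases of the matrix and the inner membrane, and CLPX is the ATPase partner of CLPP. Mitochondria of hindgut epithelium are known for the oxidation of butyrate, which microbes of the gut lumen supply.

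All levels are log2 values after robust multichip averaging. Upper quartiles of the arrays lay between 6.25 and 6.30. Of 17 epithelial markers 9 were measured, from AQP8 with a mean of 4.86 to the keratin KRT19 with a mean of 12.6, and all 9 were above the lower bound of 1.62 that was set for probeset means. A share of 17.2% of the variance lay on principal component 1, which went with the number that identifies a pig (r = 0.870), also after both were centred on the litter (r = 0.747), as a description over 20 pigs. No source used here says what the number stands for. Of the variance of the pig number 82.9% lay between litters, so that differences between litters cannot be fully told apart from what goes with this number.

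TRAP1, at 3:38536710-38595273 of Sscrofa11.1, was high in all 4 pigs of sow 1410 and low in all pigs of sows 1411 and 1435. In the litter of sow 1410 it was at 8.14 and 8.18 in the high feed efficiency female and male and at 8.10 and 8.07 in the low feed efficiency female and male. In the litter of sow 1411 the corresponding values were 6.73 and 7.25 in high and 7.23 and 7.37 in low feed efficiency. These litters did not overlap, and their means of 8.12 ± 0.05 (SD, n = 4) and 7.14 ± 0.28 (SD, n = 4) differed by 0.98 on the log2 scale, which is 1.97-fold. The litter of sow 1406 lay between 7.59 and 8.23 (mean 7.85 ± 0.27), that of sow 1417 between 7.49 and 8.31 (7.84 ± 0.37) and that of sow 1435 between 6.85 and 7.36 (7.15 ± 0.23). In the order of the means, sows 1410, 1406, 1417, 1435 and 1411, the only neighbours without overlap were 1417 and 1435, where the lowest pig of sow 1417 was at 7.49 and the highest of sow 1435 at 7.36. Between litters lay 75.6% of the variance of TRAP1, against a median of 27.4% over all probesets past the mean filter. A share of 21.1% is expected from the degrees of freedom alone (4 of 19). Because TRAP1 was picked from this comparison, these values are a description, and no p-value is given for them.

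**Figure D1:**
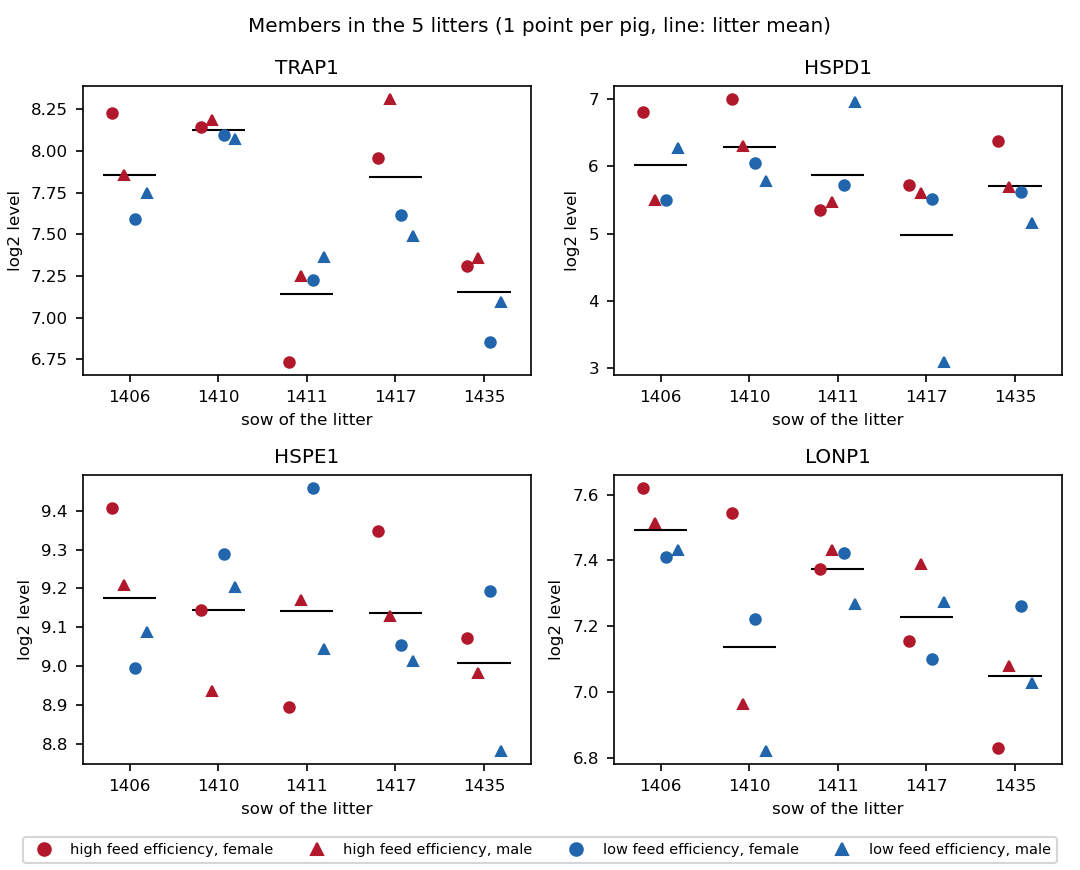
Log2 level of TRAP1, HSPD1, HSPE1 and LONP1 (vertical axes, each with its own range) in the 5 litters (horizontal axes), with 1 point per pig, red for high and blue for low feed efficiency, circles for females and triangles for males, and a line at the litter mean of 4 pigs. TRAP1 means lie between 8.12 (sow 1410) and 7.14 (sow 1411), HSPE1 means between 9.17 and 9.01, and 1 male of sow 1417 stands apart for HSPD1 at 3.10.

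The other measured members did not share this order of litters. HSPE1 on chromosome 15, at 101374019 to 101376146, had litter means from 9.17 ± 0.18 (sow 1406) to 9.01 ± 0.17 (sow 1435), which is 0.17 apart and overlapped in every neighbouring pair. LONP1, at 2:73266310-73286774, ranged from 7.49 ± 0.10 (sow 1406) to 7.05 ± 0.18 (sow 1435), 0.44 apart and without overlap between these litters, and sow 1411, the lowest litter for TRAP1, had the second highest LONP1 mean at 7.37 ± 0.07. HSPD1, at 15:101360355-101373498, was highest in the same litter as TRAP1 and ranged from 6.28 ± 0.52 (sow 1410) to 4.98 ± 1.26 (sow 1417). That lowest mean rested on the low feed efficiency male of sow 1417, at 3.10, while its littermates were between 5.51 and 5.73. Without this pig the highest and lowest litter means of HSPD1 were 0.67 apart. With all pigs the litters of sows 1410 and 1417 did not overlap for HSPD1 either, at 5.79 for the lowest and 5.73 for the highest pig. Highest and lowest litters were picked from the same values, and the share of all probesets without such overlap is not given here. The shares of variance between litters were 50.9% for LONP1, 29.4% for HSPD1 and 12.1% for HSPE1, where 21.1% is expected from the degrees of freedom alone. The limma F test over litters, from which TRAP1 had been picked, called 0.126% of 23837 probesets, so that its count of 1 of 4 members is set by the choice and nothing is read from it. That call was lost when any 1 of 16 of the 20 pigs was left out. Of the other 3 members 0 were called and 1, LONP1, had an unadjusted p under 0.05 (adjusted p = 0.297), beside 16.1% of probesets. The HSPD1 probeset carries the suffix that Affymetrix gives to probes shared among transcripts, and HSPD1 and HSPE1 have processed copies in mammalian genomes, so that signal from near-identical copies cannot be told apart.

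Genes around TRAP1 were examined for a litter pattern like its own. Within 250 kb on chromosome 3 the RefSeq table lists 17 genes, of which 6 were measured. Their Pearson r with TRAP1 over 20 pigs lay between -0.26 (ZNF174) and 0.11 (ADCY9), given as a description. CREBBP, a histone acetyltransferase gene and the nearest one measured, had its highest litter mean at 9.12 (sow 1417) and its lowest at 8.60 (sow 1406). ADCY9, an adenylyl cyclase gene, was highest at 7.19 (sow 1410) and lowest at 6.91 (sow 1411), as TRAP1 was, with sow 1435 at 7.17, near the top. ZNF597, a zinc finger gene, had the widest range of these genes, from 4.28 ± 1.02 (sow 1435) to 1.73 ± 0.76 (sow 1411), close to the lower bound of 1.62. DNASE1, whose annotated span starts at 38590045, inside that of TRAP1, was not measured, and a signal from its transcript in the TRAP1 probeset was not tested.

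**Figure D2:**
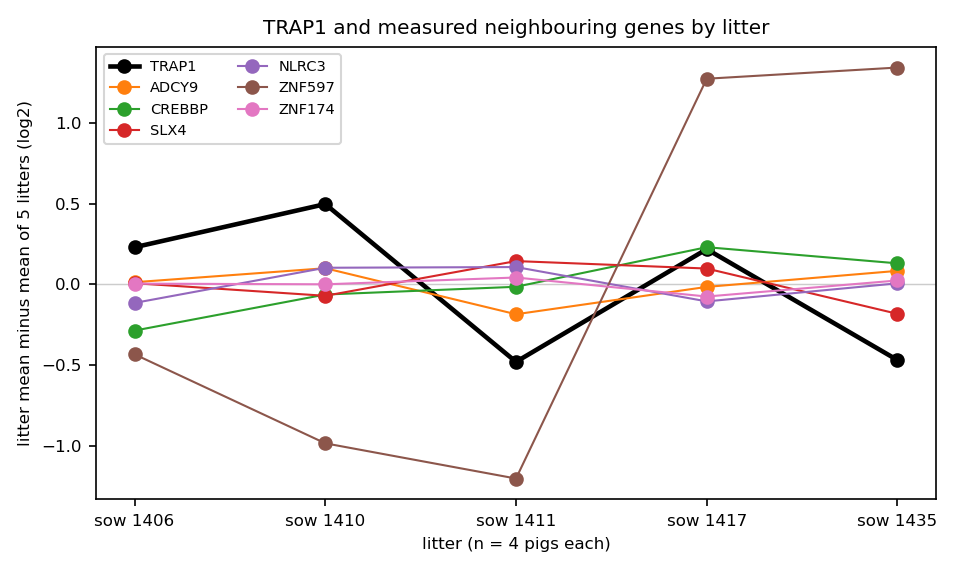
Litter mean minus the mean of the 5 litters, in log2 units (vertical axis), for TRAP1 (black) and its 6 measured neighbouring genes (colours) across the 5 litters of 4 pigs each (horizontal axis). TRAP1 is low in the litters of sows 1411 and 1435. CREBBP is lowest in the litter of sow 1406 and highest in that of sow 1417, and ZNF597 has its highest means in the litters of sows 1417 and 1435.

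The level of B cell markers was set beside that of TRAP1 by litter, as a description with no test. Of 10 listed B cell markers 7 were measured, all above the lower bound, from CXCR5 with a mean of 5.92 to CD79A with a mean of 7.94. Their mean level was 7.63 in the litter of sow 1411, 7.25 in that of sow 1435, 6.93 in that of sow 1417, 6.42 in that of sow 1410 and 6.08 in that of sow 1406, so that the litters low in TRAP1 were those highest in B cell markers. Over 20 pigs the r of TRAP1 with this list was -0.61, and after centring on the litter it was 0.11. The B cell list had the r farthest from 0 of all cell type lists scored. The others lay between -0.33 (smooth muscle) and 0.27 (goblet cells) over 20 pigs, with plasma cells at -0.23. For the epithelial markers the r with TRAP1 was -0.17 over 20 pigs and -0.51 within litters. Their level ranged from 9.37 to 10.4 in high and from 9.64 to 10.2 in low feed efficiency pigs, and that of the B cell list from 6.27 to 7.57 in high and from 5.81 to 8.17 in low feed efficiency pigs. These coefficients are descriptions over 20 pigs of 5 litters, and the part of cell composition in the TRAP1 differences was not tested.

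Over all 10345 other named genes past the mean filter, the level of TRAP1 across 20 pigs was most like that of CYP17A1 (r = 0.75), a steroid hydroxylase gene, C8A (0.72), a complement gene, NRM (0.72), a nuclear envelope gene, USP43 (0.71), a deubiquitinase gene, and SLC5A1 (0.71), the intestinal sodium-glucose cotransporter. CYP17A1 and C8A were dim, at means of 2.94 and 2.87. The most opposite pattern was that of PAX5 (r = -0.77), a transcription factor of B cells, followed by HMCN1 (-0.73) and the dim GRIN3A (-0.73). HSPE1 had rank 695 in likeness to TRAP1 (r = 0.36), HSPD1 rank 1015 (0.32) and LONP1 rank 3897 (0.09). After centring on the litter, the most alike genes were RPL12 (r = 0.79), RPS29 (0.77) and RPL10A (0.76), which encode ribosomal proteins, SPG21 (0.75) and MCM9 (0.75). Genes with the highest r were picked out of 10345, and no test belongs to them.

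Feed efficiency was compared within litters, and no measured member passed the correction for multiple tests. TRAP1 had the smallest p of the 4. Its level ranged from 6.73 to 8.31 with a median of 7.91 in high and from 6.85 to 8.10 with a median of 7.54 in low feed efficiency pigs, and the groups overlapped. The means were 7.73 ± 0.53 (SD, n = 10) in high and 7.51 ± 0.40 (SD, n = 10) in low feed efficiency, a log2 difference of 0.22 ± 0.11 (SE) with a 95% interval from -0.0095 to 0.45 (limma adjusted p = 0.980, unadjusted p = 0.0593). TRAP1 was higher in the high feed efficiency pig in 8 of 10 pairs, and the exact sign-flip test over the pairs gave p = 0.104 (two-sided). Both pairs in which it was lower belonged to sow 1411, with differences of -0.49 in females and -0.12 in males, whereas the other pairs were between 0.045 (females of sow 1410) and 0.82 (males of sow 1417). Without the litter of sow 1411 the difference was 0.35, and without that of sow 1417 it was 0.13, with no call in either case. The interaction of feed efficiency and litter, tested after these values were seen, called 0 of 4 members in limma (unadjusted p = 0.0650 and adjusted p = 0.784 for TRAP1), and 0 of 4 had an unadjusted p under 0.05, beside 0% and 6.45% of 23140 probesets.

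**Figure D3:**
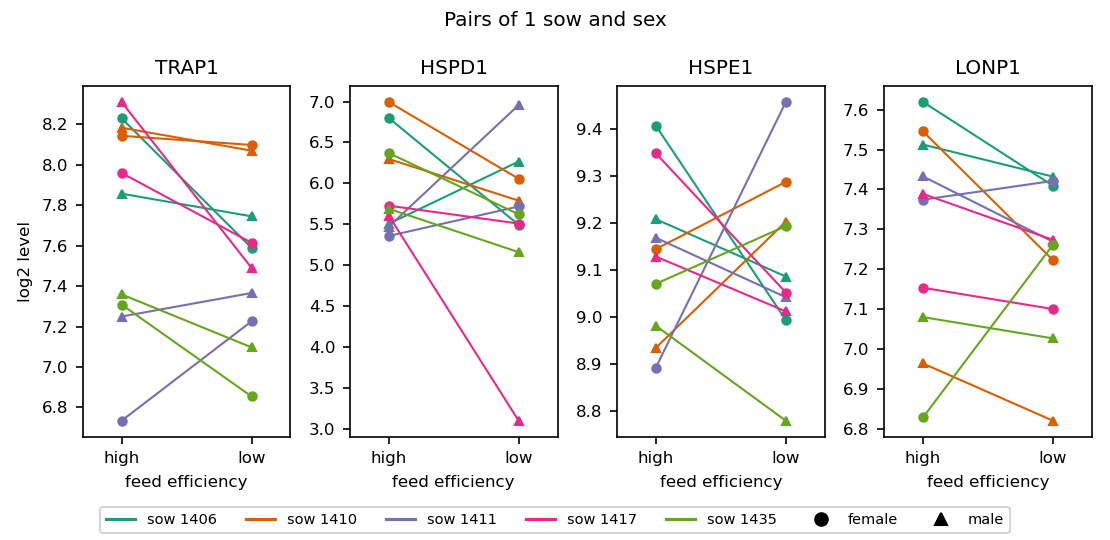
Log2 level (vertical axes) of the 4 measured members in the high and the low feed efficiency pig of each pair of 1 sow and sex (horizontal axes), joined by a line, with colours for the litters, circles for females and triangles for males. For TRAP1, 8 of 10 lines fall towards low feed efficiency and both rising lines are of sow 1411, and for HSPE1 6 of 10 fall.

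HSPD1 ranged from 5.36 to 6.995 with a median of 5.71 in high and from 3.10 to 6.96 with a median of 5.67 in low feed efficiency pigs. Its log2 difference of 0.42 ± 0.31 (SE, 95% interval from -0.24 to 1.07, limma adjusted p = 0.980) was 0.18 without the low feed efficiency male of sow 1417, 0.18 without the whole litter of that sow and 0.75 without the litter of sow 1411, and 7 of 10 pairs were above 0. HSPE1 was at 9.13 ± 0.17 in high and 9.11 ± 0.19 in low feed efficiency (SD, n = 10 each), a difference of 0.018 ± 0.091 (SE, 95% interval from -0.17 to 0.21, limma adjusted p = 0.996), with 6 of 10 pairs above 0. LONP1 was at 7.29 ± 0.27 in high and 7.22 ± 0.19 in low feed efficiency (SD, n = 10 each), a difference of 0.066 ± 0.090 (SE, 95% interval from -0.12 to 0.26, limma adjusted p = 0.980), with 8 of 10 pairs above 0. The LONP1 difference was 0.0128 without the high feed efficiency female and 0.0256 without the low feed efficiency male of sow 1410, 0.101 without the low and 0.102 without the high feed efficiency female of sow 1435, 0.0245 without the whole litter of sow 1410 and 0.130 without that of sow 1435. In all, 0 of 4 members had an adjusted and 0 of 4 an unadjusted p under 0.05 in limma, beside 0% and 4.48% of the 23140 probesets tested.

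Males and females differed in no measured member after correction. TRAP1 was at 7.67 ± 0.42 in males and 7.58 ± 0.54 in females (SD, n = 10 each, log2 difference 0.097 ± 0.109 SE), HSPD1 at 5.58 ± 1.02 in males and 5.96 ± 0.57 in females (-0.38 ± 0.31 SE), and LONP1 at 7.22 ± 0.23 in males and 7.29 ± 0.23 in females (-0.074 ± 0.090 SE). HSPE1 had the smallest p, at 9.06 ± 0.13 in males and 9.19 ± 0.19 in females (-0.13 ± 0.09 SE, 95% interval from -0.32 to 0.056). The HSPD1 difference was -0.152 without the low feed efficiency male of sow 1417 and -0.609 without that of sow 1411, that of TRAP1 was 0.0246 without the high feed efficiency female of sow 1411, and that of LONP1 was -0.0218 without the high feed efficiency female of sow 1410 and 0.0309, with its sign turned, without the whole litter of that sow. The limma adjusted p was 0.99986 for each of them, and 0 of 4 had an unadjusted p under 0.05, beside 0% of 23837 probesets called and 4.29% at the unadjusted threshold. The interaction of feed efficiency and sex called 0 of 4 members as well, and 0 of 4 had an unadjusted p under 0.05, beside 0% and 4.11% of 23140 probesets. Its estimates were 0.039 ± 0.225 (SE) for TRAP1, -0.31 ± 0.63 for HSPD1, 0.084 ± 0.182 for HSPE1 and 0.090 ± 0.186 for LONP1, with intervals as wide as -0.44 to 0.52 for TRAP1 and -1.64 to 1.02 for HSPD1.

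Further genes of mitochondrial protein handling were set beside the members, together with genes of mitochondrial content and of the cytosolic heat shock response. Of 105 genes in all these lists 55 were measured. For feed efficiency 0 of 55 were called and 1 had an unadjusted p under 0.05 in limma, beside 0% and 4.48% of 23140 probesets. Nothing particular to these genes is read from this count. The median log2 difference of the 55 genes was 0.018, against 0.0035 over all 23140 probesets, and 35 of 55 were above 0, against 51.1% of all probesets. The gene with the unadjusted p under 0.05 was PPIF, the cyclophilin of the permeability transition pore that is known to be bound by TRAP1 in human and mouse cells, at a log2 difference of 0.28 ± 0.13 (SE, unadjusted p = 0.0476, adjusted p = 0.980). BCS1L, a chaperone of complex III assembly, differed by 0.23 ± 0.13 (SE), and these were the genes with the smallest p of 7 folding cofactors, of which 4 were above 0 (median 0.011).

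Protein import had 10 of its 11 measured genes above 0, with a median of 0.081. Its genes with the smallest p were TIMM10 (0.15 ± 0.10 SE), a chaperone of the intermembrane space, and TOMM40 (0.13 ± 0.09 SE), the channel of the outer membrane. Of 9 proteases and peptidases 8 were above 0, with a median of 0.026, and SPG7, a subunit of an inner membrane protease, was at 0.26 ± 0.22 (SE) while PMPCB, which cleaves targeting sequences, was at -0.058 ± 0.104 (SE). Of the scaffold and stress genes 3 of 4 were above 0, among them STOML2 (0.12 ± 0.09 SE) and the prohibitin PHB2 (0.13 ± 0.09 SE). PHB2 is also a mitophagy receptor and was the only 1 of 4 mitophagy genes above 0, next to BNIP3L at -0.059 ± 0.108 (SE).

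Genes of mitochondrial content had 6 of 11 above 0, with a median of 0.010, and those with the smallest p were the carrier SLC25A5 (-0.098 ± 0.083 SE) and the porin VDAC3 (-0.086 ± 0.077 SE). The cytosolic HSP90 gene HSP90AB1, a relative of TRAP1, was at -0.037 ± 0.070 (SE). Of 9 cytosolic heat shock genes 4 were above 0 (median -0.044), and HSPH1, which assists HSP70, was at -0.37 ± 0.18 (SE) and the chaperonin subunit CCT2 at -0.21 ± 0.12 (SE), both with a limma adjusted p of 0.980. None of the 55 genes was called for sex, for the interaction or between litters, where 2, 2 and 11 had an unadjusted p under 0.05 in limma, beside 4.29%, 4.11% and 16.1% of all probesets, and nothing particular to these genes is read from the counts.

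**Figure D4:**
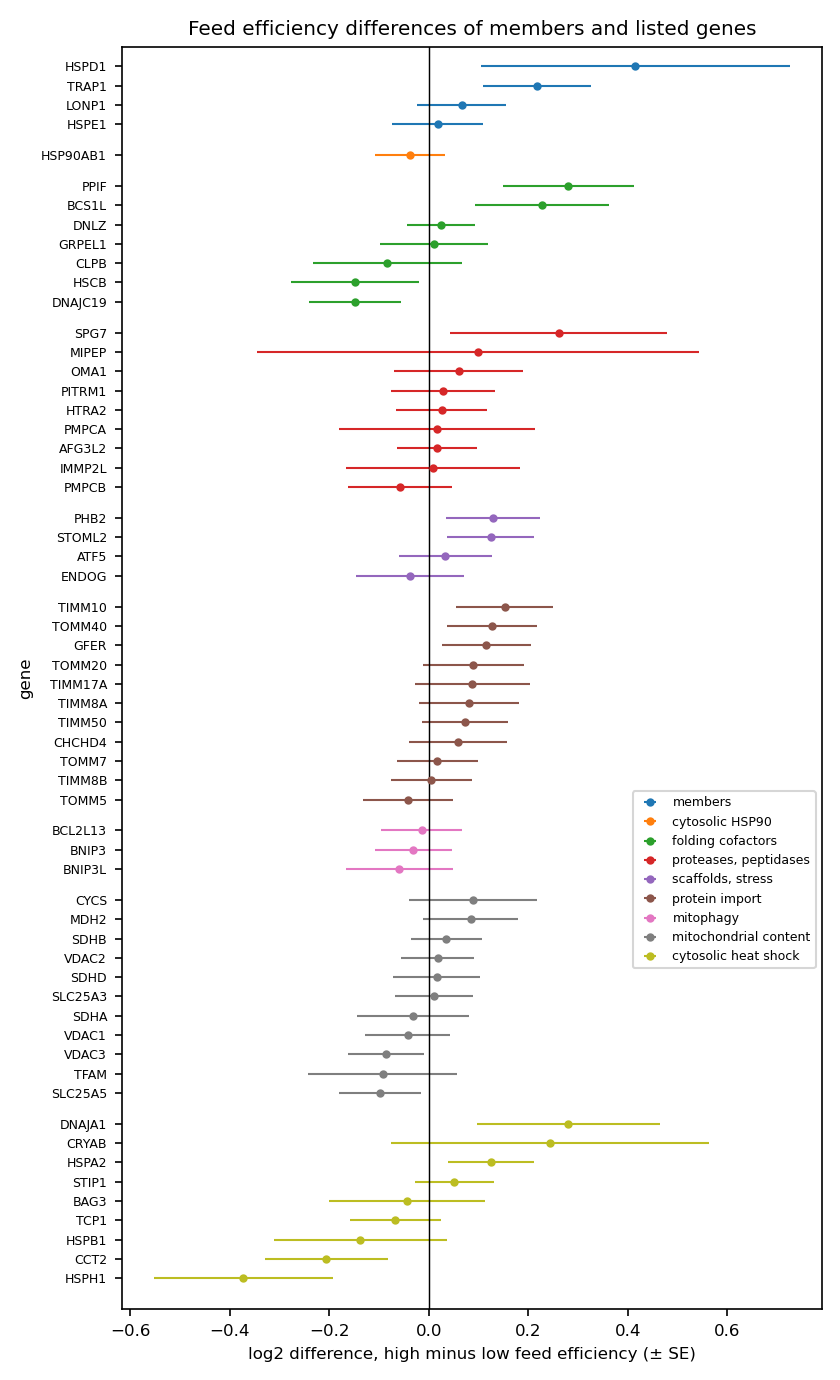
Log2 difference of high minus low feed efficiency (horizontal axis, bars are ± SE of the limma fit over 20 pigs) for the 4 members and the 55 further genes (rows), coloured by list, with PHB2 drawn once. HSPD1 lies at 0.42 and TRAP1 at 0.22, and 10 of 11 protein import genes lie right of 0 with none of them called. Over all probesets, which are not drawn, 51.1% were above 0.

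How the members varied with each other was examined within litters, which removes the differences between litters by which TRAP1 was chosen. Of 6 pairs of members, TRAP1 and HSPD1 had the strongest relation, positive in 5 of 5 litters. Pearson's r was 0.63 (within-litter permutation p = 0.0229, adjusted p = 0.137 over 6 pairs) and Spearman's rho 0.68 (permutation p = 0.00483, adjusted p = 0.0290), so that the rank correlation passed and the linear one did not. Without the 2 pigs farthest from the median of TRAP1 r was 0.61. Without the low feed efficiency male of sow 1417, which was lowest in HSPD1, r was 0.53 (adjusted p = 0.220) and rho 0.57 (adjusted p = 0.149), and neither passed. Before centring, r was 0.32 over 20 pigs. The rank of the within-litter r of 0.63 among all genes is not given here, and RPL12 reached 0.79 with TRAP1. Whether 0.63 is unusual was therefore not tested. HSPD1 and HSPE1 form 1 chaperonin and lie 520 bases apart on chromosome 15, and their r within litters was 0.29 (permutation p = 0.246, adjusted p = 0.429) with a rho of 0.38 (permutation p = 0.147, adjusted p = 0.272). The r of the other pairs lay between 0.064 (HSPD1 and LONP1) and 0.39 (TRAP1 and HSPE1), none of which passed. Values of a pig come from 1 array, so that array effects are shared by both genes of a pair.

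The members were then set against the mean of each of 8 lists of mitochondrial and heat shock genes, in 32 correlations within litters that were chosen after values had been seen. HSPE1 went with genes of mitochondrial content, with r = 0.73 (permutation p = 0.00267, adjusted p = 0.0427) and rho = 0.73 (permutation p = 0.00217, adjusted p = 0.0347), positive in 5 of 5 litters and at r = 0.69 without the 2 pigs farthest from the median of the list. In this list the r with HSPE1 was highest for the malate dehydrogenase MDH2 (0.76) and the succinate dehydrogenase subunit SDHA (0.72), and negative only for TFAM (-0.15), which packages mitochondrial DNA. The r of HSPE1 was positive with every other list too, from 0.14 (proteases and peptidases) to 0.63 (protein import, adjusted permutation p = 0.113). Cytosolic heat shock was at 0.46. None of these passed, and a relation particular to mitochondrial content is not shown. LONP1 went with the mean of PHB2, STOML2, ATF5 and ENDOG, with r = 0.63 (permutation p = 0.00087, adjusted p = 0.0278) and rho = 0.72 (permutation p = 0.00123, adjusted p = 0.0347), positive in 5 of 5 litters and at 0.54 without the 2 farthest pigs. With a term for pig number these r were 0.71 (adjusted p = 0.0522) for HSPE1 and 0.54 (adjusted p = 0.123) for LONP1. With terms for feed efficiency and sex they were 0.69 and 0.62 (adjusted p = 0.0617 for both), so that neither r passed in these fits. Both r also lost the call without the litter of sow 1410 (adjusted p = 0.156 for both), of sow 1411 (adjusted p = 0.300 for HSPE1 and 0.180 for LONP1) or of sow 1417 (adjusted p = 0.0582 for both), and that of HSPE1 without the litter of sow 1435 (adjusted p = 0.0829). The rho of HSPE1 still passed with pig number (adjusted permutation p = 0.0261) and without the litter of sow 1435 (0.0386). That of LONP1 did not pass without the litter of sow 1406 (adjusted permutation p = 0.0773). With pig number, the r of HSPE1 with protein import passed too (0.71, adjusted permutation p = 0.0266). None of the 8 correlations of TRAP1 or of the 8 of HSPD1 passed.

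LONP1 was the only member with a called relation to the main gradient between arrays, by r and not by rho. Within litters its r with principal component 1 was -0.61 (permutation p = 0.00526, adjusted p = 0.0421 over 8 relations) and its rho -0.56 (permutation p = 0.0218, adjusted p = 0.174), and r was -0.45 without the 2 pigs farthest on the component. With the pig number r was -0.61 (permutation p = 0.0499, adjusted p = 0.1998) and rho -0.54 (permutation p = 0.0695, adjusted p = 0.278). The slope of LONP1 was positive in 1 of 5 litters against component 1 and in 2 of 5 against pig number. For TRAP1, HSPD1 and HSPE1 the r with either measure lay between 0.13 and 0.34, and none passed. Without the 2 pigs farthest on component 1, r with it was 0.56 for TRAP1, 0.62 for HSPD1 and 0.15 for HSPE1. LONP1 thus did not stand apart from TRAP1 and HSPD1 without these pigs. The part of this gradient in the LONP1 relations was not tested beyond the fit with pig number.

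**Figure D5:**
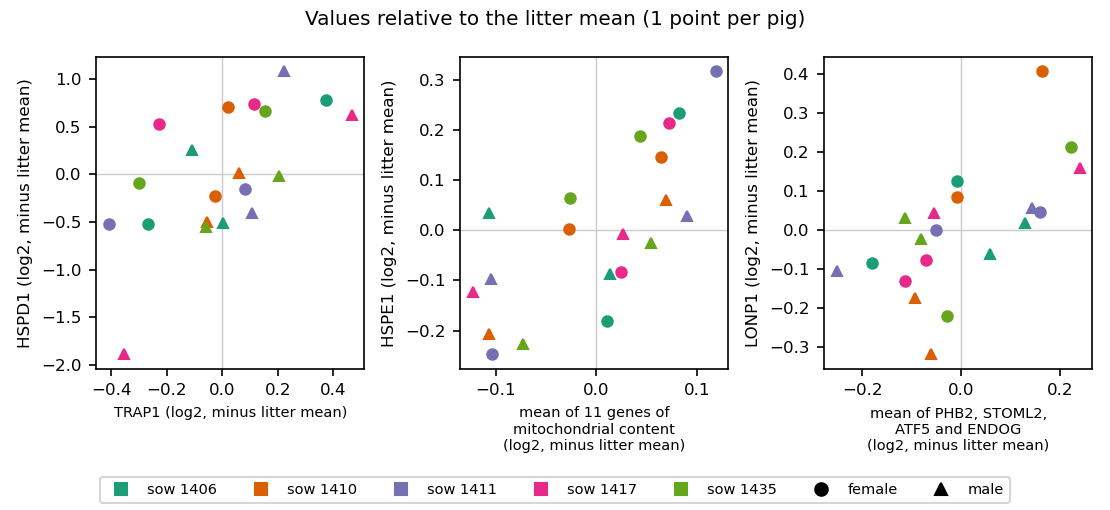
Values relative to the litter mean, in log2 units, for HSPD1 against TRAP1 (left), HSPE1 against the mean of 11 genes of mitochondrial content (middle) and LONP1 against the mean of PHB2, STOML2, ATF5 and ENDOG (right), with 1 point per pig, colours for the litters, circles for females and triangles for males. All 3 clouds rise to the right, with r of 0.63, 0.73 and 0.63, and the low feed efficiency male of sow 1417 lies at the bottom left of the first.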

How the data were processed

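RNA of caecal mucosa of 20 pigs was hybridised to the Affymetrix porcine snowball array, with probes assigned to probesets by a custom layout built on Sscrofa11.1. Values were deposited on the log2 scale, made by the authors with robust multichip averaging. This step gives all arrays 1 distribution of intensities and can compress differences of dim probesets. The submitters' processing notes name GCOS 1.1.1. Of 47845 probesets 25092 held values, and 0 columns were unmatched. Gene names came from the platform's annotation (16361 with 1 symbol, 0 with several, 8731 with none), with 331 symbols updated through RefSeq synonyms. Per gene the probeset with the highest mean was used.

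The study's filters were kept. Probesets whose mean fell below 1.62, the 5% quantile of means, were dropped, which left 23837. For feed efficiency and its interactions, probesets whose SD exceeded the 95% quantile in each group were dropped too, which left 23140. Slaughter batch is a term of the study's model that the labels lack, and it was not used here. The limma package (version 3.58.1, R 4.3.3) was fitted with sow as a fixed factor for feed efficiency and its interaction with sex, with sow and feed efficiency for sex, and with feed efficiency and sex for litter. Apart from those of F tests, p-values are two-sided. Those of limma were adjusted over all probesets tested (Benjamini-Hochberg), and the sign-flip p was not adjusted. An adjusted p under 0.05 was called. Litters were compared by a moderated F test. Correlations within litters used values centred on the litter and 100000 permutations within litters, and were adjusted over their family. Fits were checked on simulated data. The members and lists were chosen with earlier results of these data known. Named are all measured members, the genes most like TRAP1, its measured neighbours, and from each list the genes called or otherwise the 2 with the smallest p for feed efficiency. Other genes were named after their values were seen. Alternatives changed filters, covariates, scaling, the variance model and the pigs included. The number of arrays limits the precision.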

Additional observations from a re-analysis of the deposited data

Results flagged for a closer look

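The low feed efficiency male of sow 1417 stood apart for HSPD1 at 3.10, in its litter (next value 5.51), among low feed efficiency pigs and among males (next value 5.16 in both). Such a gap was looked for in 36 groups of 4 or 10 pigs and found in these 3, which are 1 pig, and chance gives about 1 in 20. In the same pig TRAP1 was at 7.49, HSPE1 at 9.01 and LONP1 at 7.27.

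The feed efficiency difference ran in opposite directions between litters for 3 members. The share of all probesets with such a pattern is not given here, and nothing is read from this count. TRAP1 was lower in high feed efficiency in both pairs of sow 1411 (mean difference -0.30) and higher in both pairs of each of the other 4 litters (mean 0.35). HSPD1 was lower in both pairs of sow 1411 (mean -0.93) and higher in both pairs of sows 1410, 1417 and 1435 (mean 0.91). HSPE1 was lower in both pairs of sow 1410 (mean -0.21) and higher in both of sows 1406 and 1417 (mean 0.24). A limma F test of the interaction of feed efficiency and litter, chosen after seeing the data, gave adjusted p = 0.784 for TRAP1, 0.835 for HSPD1 and 0.867 for HSPE1, and called 0% of 23140 probesets, with 6.45% at an unadjusted p under 0.05. The unadjusted p of TRAP1 was 0.0650.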

How the results depend on the processing

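For feed efficiency, sex and their interaction, 0 of 4 members were called under all alternatives run, which numbered 34, 31 and 30, and 0 of the 55 listed genes for feed efficiency. The feed efficiency difference of TRAP1 stayed between 0.13 and 0.35 that of HSPD1 between 0.18 and 0.75 and that of LONP1 between 0.0128 and 0.130. The sex difference stayed between 0.0246 and 0.148 for TRAP1 and between -0.645 and -0.152 for HSPD1. Values near 0 changed sign. For feed efficiency HSPE1 was at -0.0447 without the litter of sow 1406 and -0.0294 without that of sow 1417, and between -0.0143 and 0.0643 without single pigs. For sex LONP1 was at 0.0309 without the litter of sow 1410. For the interaction TRAP1 was at -0.0443 and HSPE1 at -0.0678 without the litter of sow 1411, TRAP1 at -0.0693 without that of sow 1417, HSPD1 at 0.129 without that of sow 1406 and LONP1 at -0.00906 without that of sow 1435, and without single pigs the ranges were -0.114 to 0.147 for TRAP1, -0.834 to 0.157 for HSPD1 and -0.0162 to 0.170 for HSPE1.

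In the litter comparison the count of called members, 1, was 0 with pig number as a covariate, 0 to 1 without single pigs (0 for 16 of 20) and 0 without each of the 5 litters. The litter range of TRAP1 was 1.25 with pig number regressed out and 0.711 without the litter of sow 1410. Over all probesets the litter count of 30 became 3 with pig number, 116 without probesets under the median and 73 with an intensity trend, 11 to 72 without single pigs and 7 to 16 without the litters of sows 1406, 1410, 1411 and 1435. The counts of 0 over all probesets reached 1 for feed efficiency (without the high feed efficiency female of sow 1417), 2 for sex (with pig number) and 1 for the interaction (without the high feed efficiency male of sow 1435). The rank correlation of TRAP1 and HSPD1, 1 of 6 called, was 0 of 6 with pig number, with feed efficiency and sex, without the low feed efficiency male of sow 1417 and without the litters of sows 1406, 1411 and 1417. The cause of these changes was not tested. The mean over probesets of a symbol was not run, since each member had 1 probeset with values. With the pair of sow and sex as a block, 0 members were called for feed efficiency (adjusted p = 0.969 for TRAP1).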

Other observations

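A few listed genes had an unadjusted limma p under 0.05 in comparisons where none was called. MIPEP, a peptidase that trims imported proteins, was 1.099 ± 0.375 (SE) higher in males than in females on the log2 scale (adjusted p = 0.99986) at a dim mean of 3.14, and SDHA, a subunit of succinate dehydrogenase, differed by -0.23 ± 0.10 (SE, adjusted p = 0.99986). For the interaction of feed efficiency and sex, PHB2 was at 0.37 ± 0.17 (SE) and MIPEP at 1.43 ± 0.67 (SE), both with an adjusted p of 0.999.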
